A study of Mus musculus with 4 samples.

Results

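Divergent gene pairs are neighbouring genes on opposite strands whose transcription start sites (TSSs) lie head to head, so that a single stretch of DNA serves as the promoter region of both. Pairs were taken from the curated coding transcripts of RefSeq on the autosomes of GRCm38 (mm10), with TSSs of different genes at most 1000 bp apart. Each pair window ran from 1000 bp outside the TSS of the gene on the minus strand to 1000 bp outside the TSS of the gene on the plus strand. A pair was kept when its window held at least 5 common cytosines, meaning CpG cytosines covered by at least 10 reads in each of 4 mice. Of 907 head-to-head pairs, 839 (92.5%) were kept, with 1666 genes, 12 of which were in more than 1 pair. Their windows held 47060 of the 1276684 common cytosines of the series (3.69%).

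DNA methylation was measured by enhanced reduced representation bisulfite sequencing (ERRBS), which enriches CpG-rich fragments by digestion with the enzymes MspI and TaqαI and reads methylated cytosines as C and unmethylated ones as T. Liver DNA came from 4 males aged 6 to 8 weeks on a normal diet. The strain make-up of the Mixed mice (Mixed-1 and Mixed-2) was not defined, with C57BL/6J as 1 of several contributing strains, and the B6 mice (B6-1 and B6-2) were C57BL/6. The strains were housed at different institutions and the B6 libraries were deeper, so strain, housing and depth cannot be told apart. Each mouse was 1 library of whole liver, and the values are averages over all of its cell types. Of the promoters of 10 hepatocyte marker genes, Hnf4a (25.1%), F2 (19.4%) and Fgb held common cytosines. Of leukocyte marker genes, Cd79b was at 82.6%, Cd48 at 68.7% and Coro1a at 8.13%. The promoters of 7 of the 10 hepatocyte markers and 6 of the 10 leukocyte markers held no common cytosine.

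Divergent promoters are common in mammalian genomes and most contain a CpG island, a stretch rich in CpG dinucleotides that usually stays unmethylated when the genes are used in every cell. Many such pairs join genes for housekeeping work such as DNA repair, translation and mitochondrial function. Methylation of a CpG island promoter is known from imprinted genes, where only the copy from 1 parent is methylated, and from germline genes, which are methylated and silent in somatic tissues.

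A few stretches are printed to show where methylated and unmethylated cytosines were measured. The following stretches lay between the TSSs, outside any coding or noncoding exon, and are printed 5′ to 3′ on the plus strand of GRCm38 from the RefSeq genome. Capitals mark the CpGs that were measured in all mice. The first 2 were methylated at 97.1% (chr2:84658978-84659071, 7 cytosines) and 89.0% (chr5:31108245-31108292, 5 cytosines), and the last 2 were unmethylated at 0.0757% (chr16:18248695-18248846, 22 cytosines) and 0.186% (chr16:15637401-15637443, 9 cytosines).
Ctnnd1/Btbd18: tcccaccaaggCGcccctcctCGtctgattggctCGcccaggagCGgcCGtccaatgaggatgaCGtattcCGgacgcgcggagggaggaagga
Slc30a3/Dnajc5g: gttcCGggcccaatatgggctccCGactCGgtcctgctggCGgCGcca
Ranbp1/Trmt2a: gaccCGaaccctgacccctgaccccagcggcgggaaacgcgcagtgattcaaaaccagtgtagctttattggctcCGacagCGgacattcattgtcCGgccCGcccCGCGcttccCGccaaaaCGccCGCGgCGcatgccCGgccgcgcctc
Mcm4/Prkdc: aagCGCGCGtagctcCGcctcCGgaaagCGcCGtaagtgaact

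The next 3 stretches show the methylated side of a pair, with cytosines in coding exons: H2bc1 (chr13:23933984-23934162, 9 cytosines, 92.9%, the last 6 bases lying beyond the TSS), Klhl10 (chr11:100442051-100442242, 8 cytosines, 69.0%, the last cytosine in an intron) and Ggnbp1 (chr17:27029459-27029499, 5 cytosines, 90.8%). The last stretch lies between the TSSs of Bak1 and Ggnbp1, inside an intron of longer Ggnbp1 transcripts (chr17:27028628-27028827), where 14 cytosines averaged 0.365%.
H2bc1: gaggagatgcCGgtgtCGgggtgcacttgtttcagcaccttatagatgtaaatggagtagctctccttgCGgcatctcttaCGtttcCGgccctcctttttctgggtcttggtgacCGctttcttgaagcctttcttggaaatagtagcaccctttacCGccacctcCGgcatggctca
Klhl10: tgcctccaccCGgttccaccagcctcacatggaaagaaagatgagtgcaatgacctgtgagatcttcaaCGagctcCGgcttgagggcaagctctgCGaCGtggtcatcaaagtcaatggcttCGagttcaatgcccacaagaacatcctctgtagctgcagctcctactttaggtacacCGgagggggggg
Ggnbp1: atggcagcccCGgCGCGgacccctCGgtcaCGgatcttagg
Bak1/Ggnbp1: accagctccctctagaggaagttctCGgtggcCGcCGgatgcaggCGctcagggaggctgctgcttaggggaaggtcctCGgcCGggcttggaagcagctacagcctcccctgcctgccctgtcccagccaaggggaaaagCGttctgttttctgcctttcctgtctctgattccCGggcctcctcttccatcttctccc

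Nearly all divergent pairs were unmethylated in mouse liver. Where 4 values stand in a row below, they are those of the Mixed mice, 1 then 2, and of the B6 mice, 1 then 2. The mean of the window means, each over its common cytosines, was 1.64% and 1.61% in the Mixed mice and 1.61% and 1.62% in the B6 mice (mean 1.62% ± 0.0121, SD, n = 4 mice). This mean was carried by few pairs, since the median window was at 0.165% ± 0.0159 and 727 of the 839 pairs (86.7%) were below 1%. Levels this low were not separated from incomplete bisulfite conversion. With bounds of 20% and 80% applied to the mean of the 4 mice, 825 pairs (98.3%) were hypomethylated (<20%), 9 were intermediate and 5 were hypermethylated (>80%). In 744 pairs every common cytosine was below 20%. By cytosine, 46670 (99.2%) were below 20%, 298 lay between 20% and 80% and 92 were above 80%, and the 92 came from 26 pairs, with 48 of them in the 5 hypermethylated pairs.

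The pairs differed little between mice. The median SD of a window over the 4 mice was 0.0982 points, and only 1 pair, Sgce/Peg10, had a range over 10 points. Median coverage of the cytosines in pair windows was 46 and 50 reads in the Mixed mice and 74 and 66 in the B6 mice. Coverage summed over the common cytosines of the series was between 59134306 and 91412177 per mouse. A read is counted there once for each common cytosine it covers, so these are not numbers of reads.

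The pairs were close together and rich in CpGs. The distance between TSSs ran from 1 to 1000 bp with a median of 148 bp, and a window held a median of 47 common cytosines (5 to 314). A CpG island called from the sequence overlapped 836 of the pair windows (99.6%). The 2 closest pairs had TSSs 1 bp apart: Capza1/St7l, an actin capping subunit and a gene named for similarity to the tumour suppressor St7, averaged 0.0954% over 79 cytosines, and Tcta/Rhoa, whose plus-strand gene is a small GTPase of the cytoskeleton, averaged 0.116% over 106. Most cytosines were measured at Ccdc92/Zfp664, where 314 of them averaged 0.583%.

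The minimum of 5 cytosines left out 68 pairs, 56 of which had no common cytosine at all, and 55 of the 68 held an island. At the limit, 4 pairs with exactly 5 cytosines lay between 0% and 3.08%, and 4 pairs with exactly 4, which were left out, lay between 0.13% and 32.4%. The 2 pairs with exactly 3, also left out, were at 0% and 86.3%, so the minimum removed a pair that was high over few cytosines. The 9 pairs with the TSSs farthest apart, from 953 to 1000 bp, lay between 0.0795% (Zbtb25/Zbtb1) and 15.4% (Haghl/Ccdc78).

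Across the pair, methylation was low and flat around the TSSs and rose towards the outer edges. Cytosines between the TSSs averaged 0.521%, 0.483%, 0.502% and 0.495% (0.50% ± 0.0158, 8347 values from 619 pairs, a cytosine in overlapping windows being counted for each). Outside, the mean stayed between 0.416% and 0.598% in each 100 bp bin up to 500 bp. It was 1.01% at 501 to 600 bp, 3.82% at 701 to 800 bp and 8.91% ± 0.243 at 901 to 1000 bp, where 454 cytosines were measured.

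Cytosines 501 to 1000 bp outside averaged 2.75%, 2.68%, 2.66% and 2.70% in the 4 mice. They exceeded those between the TSSs by 2.20 points ± 0.0297 (SD, n = 4), in 4 of 4 mice, with a p = 0.13 by an exact sign test over mice, two-sided, which is the lowest value possible here. The rise was a matter of a minority of pairs. At 901 to 1000 bp on the minus-strand gene side, 9 of 41 pairs with cytosines there were at 20% or more and the median pair was at 0.781%. On the plus-strand gene side the figures were 12 of 34 pairs and 2.07%. The minus-strand gene side averaged 5.92% ± 0.370 in that last bin and the plus-strand gene side 14.2% ± 0.296, from 290 and 164 cytosines.

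Between the TSSs, the mean over cytosines was slightly higher in the middle than at the ends. The 4 equal parts of the interval, from the minus-strand TSS to the plus-strand TSS, averaged 0.414%, 0.614%, 0.715% and 0.336%, with SDs over the mice from 0.00791 to 0.0293 points. The shares of cytosines above 80% in the same parts were 0.137%, 0.395%, 0.376% and 0.119%. Few pairs weighed on these means. Only 20 cytosines between the TSSs were above 80%. Of the pairs with at least 3 cytosines there, 3 averaged above 80%: Ctnnd1/Btbd18 (97.1%), Slc30a3/Dnajc5g (90.5%) and Gml/Gml2 (82.4%). The 4 parts were not compared without these pairs, so the shape may not hold for a typical pair.

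**Figure D1:**
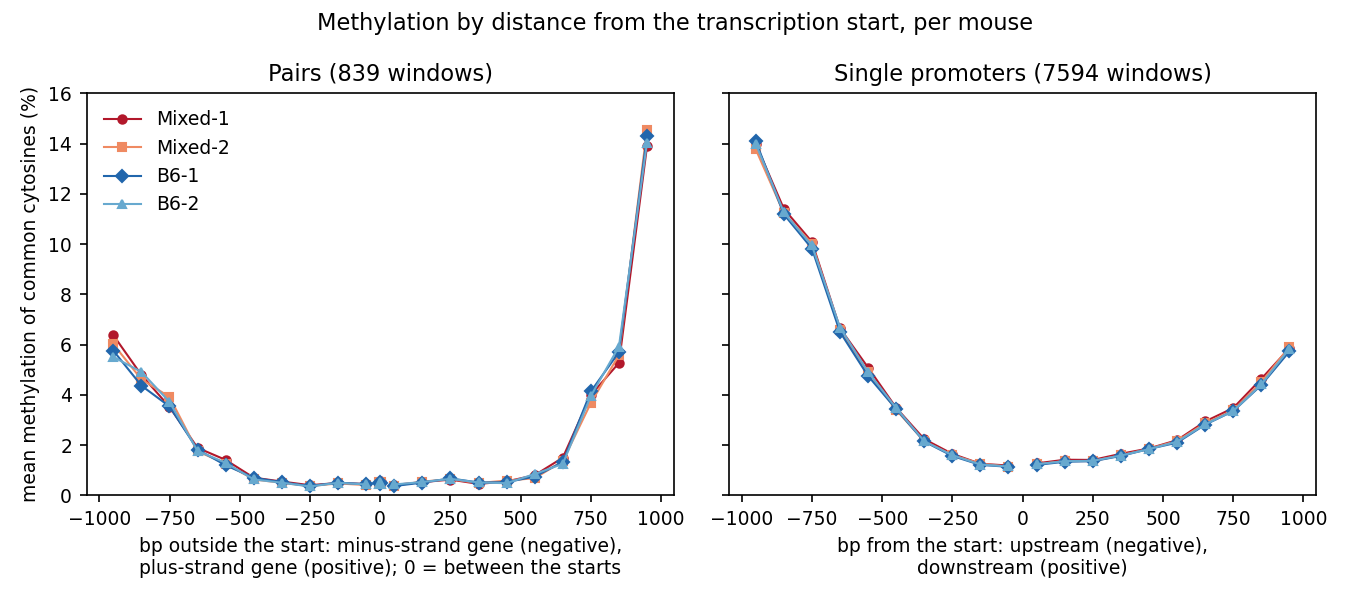
Mean methylation (%) of common cytosines by distance from the TSS in 100 bp bins, for each mouse. Left, 839 divergent pairs, with the cytosines between the TSSs at 0; right, 7594 single promoters. In the pairs the 4 mice overlie each other near 0.5% up to 500 bp outside and reach 5.92% (minus-strand gene) and 14.2% (plus-strand gene) in the last bin.

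Pairs were then compared with single promoters, the most 5′ TSSs of autosomal coding genes with no TSS of another gene within 5000 bp, in windows of 1000 bp on each side. Of 13722 such promoters, 7594 (55.3%) held at least 5 common cytosines. They averaged 5.81%, 5.77%, 5.71% and 5.75%, against values from 1.61% to 1.64% in the pairs. The pairs were lower by 4.14 points ± 0.0305 (SD, n = 4), in 4 of 4 mice (p = 0.13, exact sign test, two-sided). The size of this difference depended on what was averaged. It was -1.97 points among windows with 10 or more cytosines, -1.59 points within 200 bp of the TSSs and -0.169 points between medians (0.165% and 0.334%).

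Methylated promoters were also a smaller share of the pairs. Of the single promoters, 199 (2.62%) were above 80% and 344 (4.53%) were between 20% and 80%. The share at 20% or more was 1.79%, 1.79%, 1.67% and 1.67% of the pairs in the 4 mice and from 7.10% to 7.18% of the single promoters (p = 0.13, exact sign test, two-sided). Islands were present in 7379 of the single promoters (97.2%), and the median ratio of observed to expected CpGs was 0.663 in pairs and 0.619 in single promoters. Among windows with an island the means were 1.51% ± 0.0134 and 4.35% ± 0.0296, a difference of -2.84 points.

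The shape around the TSS differed as well. Upstream of single promoters the mean rose from 1.15% in the first 100 bp to 3.45% at 401 to 500 bp and 14% at 901 to 1000 bp. Downstream it rose more slowly, from 1.24% to 5.84%. In a pair, the DNA upstream of either gene is the stretch between the TSSs or the transcribed part of its partner. The DNA outside a TSS is downstream of the nearer gene. At 401 to 500 bp outside, the mean was 0.598% in pairs and 1.85% downstream of single promoters. Farther out the mean over cytosines was higher in pairs, with 3.82% against 3.39% at 701 to 800 bp. At 901 to 1000 bp the values were 8.91% and 5.84%. In that last bin the minus-strand gene side, at 5.92% from 41 pairs, was near the single promoters. The plus-strand gene side was at 14.2% from 34 pairs. Few pairs held cytosines that far out, so the inner and outer bins do not rest on the same pairs.

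Distance between the TSSs made little difference to a typical pair. The 507 pairs at most 200 bp apart averaged 1.5%, 1.49%, 1.47% and 1.5% in the 4 mice, and the 108 pairs over 500 bp apart 2.59%, 2.61%, 2.61% and 2.59%. The difference of -1.11 points had the same sign in 4 of 4 mice (p = 0.13, exact sign test, two-sided). It shrank to -0.142 points when only the 745 pairs made of the most 5′ TSS of both genes were used, to -0.581 points with limits of 100 and 300 bp, and to -0.0653 points between medians. The median level was 0.164% in each of the 3 classes up to 300 bp, 0.170% at 301 to 500 bp and 0.220% beyond.

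The 14 pairs at 20% or more were the exceptions. They were chosen by their level, so the levels are given without a test, and their sequence is given beside them. They held fewer CpGs than the other 825 pairs: the median ratio of observed to expected CpGs was 0.446 against 0.665, the median number of CpGs in the window 77 against 104 and the median number of common cytosines 12 against 48. Median GC content was 54.2% and 54.3%. An island was present in 12 of the 14.

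**Figure D2:**
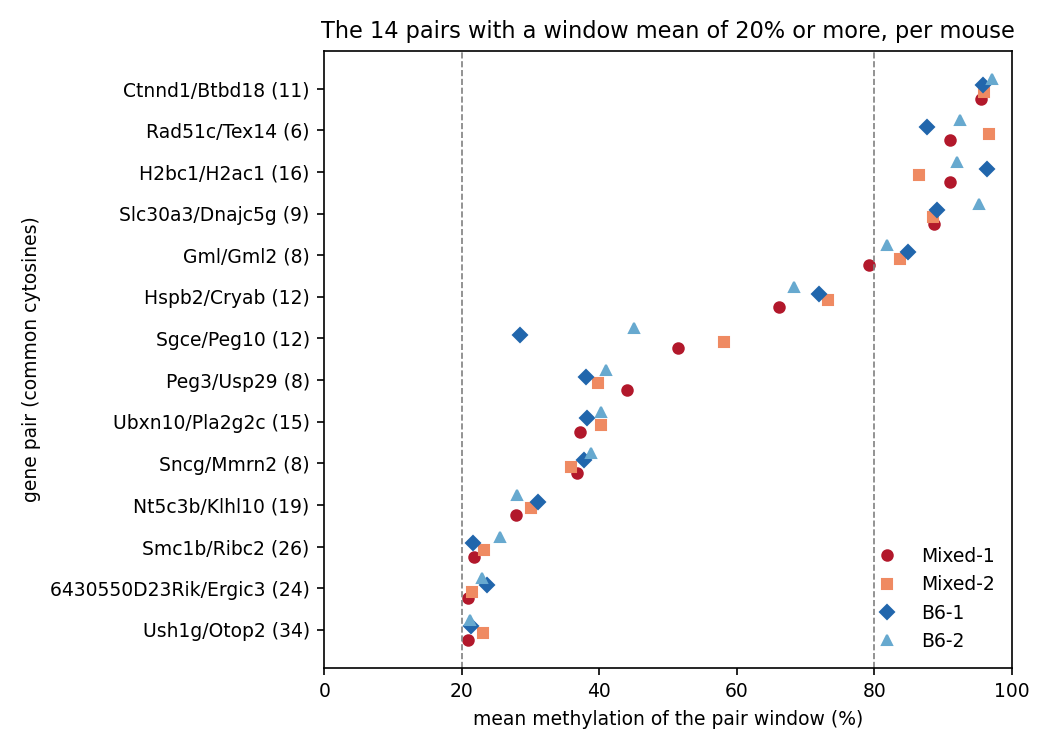
Window mean methylation (%) of the 14 pairs at 20% or more, with 1 symbol per mouse and the number of common cytosines in brackets; dashed lines mark 20% and 80%. The mice span under 10 points in each pair but Sgce/Peg10, where B6-1 is at 28.5% and Mixed-2 at 58.1%.

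Ctnnd1/Btbd18 was the most methylated pair. Ctnnd1 encodes p120 catenin of adherens junctions, and Btbd18 a factor for piRNA genes in male germ cells. The window (chr2:84657977-84660079, TSSs 102 bp apart) was at 95.6%, 96.0%, 95.8% and 97.1% (96.1% ± 0.697, 11 cytosines, coverage 31 to 98). The 4 cytosines inside the first exon of this Ctnnd1 transcript, 3 to 36 bp from its TSS, averaged 94.3%. The 7 between the TSSs, in the stretch printed above, ran from 93.9% to 100%. No common cytosine lay inside Btbd18 or farther inside Ctnnd1 in the window.

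Rad51c/Tex14 joins a recombination protein with a protein of the bridges between male germ cells. Its window (chr11:87403954-87406065, TSSs 111 bp apart) stood at 91.0%, 96.7%, 87.7% and 92.5% (92.0% ± 3.75), but rested on 6 cytosines 29 to 211 bp inside Tex14. The first 3 lay in a noncoding part of an exon and the last 3 in an intron. No common cytosine lay between the TSSs or on the Rad51c side.

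H2bc1/H2ac1 is the pair of testis histone genes known as TH2B and TH2A. Its window (chr13:23933156-23935437, TSSs 281 bp apart) was at 91.1%, 86.5%, 96.5% and 92.1% (91.5% ± 4.08, 16 cytosines). The 9 cytosines in the H2bc1 coding exon ran from 77.5% to 97.9% and the 7 in the H2ac1 coding exon averaged 89.8% and reached 95.8%, so both genes of the pair were methylated at their start.

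Slc30a3/Dnajc5g pairs the zinc transporter of synaptic vesicles with a J-domain gene. Its window (chr5:31107244-31109319, TSSs 75 bp apart) was at 88.6%, 88.5%, 89.2% and 95.3% (90.4% ± 3.28, 9 cytosines). The 5 cytosines of the printed stretch between the TSSs lay between 81.1% and 94.8%, and the 3 inside Dnajc5g between 84.2% and 98.0%. No common cytosine lay on the Slc30a3 side.

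Gml/Gml2, a pair of related genes for GPI-anchored proteins (window chr15:74817815-74820076, TSSs 261 bp apart), was at 79.3%, 83.7%, 84.8% and 81.8% (82.4% ± 2.43, 8 cytosines, all between the TSSs). In Mixed-1 alone it was below 80%. One cytosine 114 bp from the Gml TSS was at 0.909%, while the other 7 lay between 82.8% and 98.4%. This cytosine lies in a CCGG, the sequence cut by MspI. Sites of TaqαI were not examined.

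Hspb2/Cryab joins small heat shock protein genes. Its window (chr9:50751354-50753971, TSSs 617 bp apart) was at 66.1%, 73.3%, 71.9% and 68.3% (69.9% ± 3.30), from 12 cytosines 72 to 495 bp inside Cryab, in a transcript whose TSS lies 1646 bp from the most 5′ one. At a CpG 72 bp inside Cryab the plus strand read 76.9% and the minus strand 0.862%, and this CpG too lies in a CCGG. Over the 6 most methylated pairs, 2 of 24 cytosines in a CCGG were below 20% and 0 of the 38 others were, and the part of the enzyme site in those values was not tested.

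Of the intermediate pairs, 2 are known imprinted loci, picked out here from the pairs at 20% or more. At Peg3/Usp29, both expressed from the paternal copy, the window (chr7:6729419-6731583, TSSs 164 bp apart) was at 44.1%, 39.8%, 38.1% and 40.9% (40.7% ± 2.53). Its 8 cytosines lay 91 to 157 bp inside Peg3, in a noncoding part of an exon, and ranged from 39.8% to 43.9%.

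At Sgce/Peg10, also an imprinted pair expressed from the paternal copy (window chr6:4746204-4748306, TSSs 102 bp apart), the 12 cytosines 49 to 184 bp inside Peg10 averaged 51.4%, 58.1%, 28.5% and 45.0% (45.8% ± 12.7). B6-1 was the lowest mouse at 12 of 12 cytosines, and both Mixed mice lay above both B6 mice in the window mean. One cytosine on the minus strand, at chr6:4747461, was at 93.8% in Mixed-1 and 100% in Mixed-2 and at 33.3% and 40.6% in B6-1 and B6-2. Its coverage was 16 and 19 reads in the Mixed mice, where the other cytosines on that strand had 34 to 40, and 87 and 96 in the B6 mice, where they had 91 to 98.

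The remaining intermediate pairs were uneven along the window. Ubxn10/Pla2g2c, a UBX-domain gene of cilia and a secreted phospholipase gene, was at 37.3%, 40.3%, 38.2% and 40.3%, with 2 cytosines between the TSSs at 1.40% and 4.44% and others inside Ubxn10 up to 76.6%. The Ubxn10 TSS was 13173 bp from its most 5′ one. Sncg/Mmrn2, gamma-synuclein and an endothelial extracellular matrix gene, was at 36.7%, 35.9%, 37.8% and 38.8% over 8 cytosines.

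Smc1b/Ribc2 joins a meiotic cohesin subunit with a gene of ciliary microtubules. Its window (chr15:85130957-85133099, TSSs 142 bp apart) was at 21.8%, 23.2%, 21.6% and 25.6% over 26 cytosines. The Smc1b side averaged 51.7% ± 3.13 over 10 cytosines, with single cytosines from 18.8% to 93.1%, while the Ribc2 side averaged 5.09% ± 1.92 over 15. Nt5c3b/Klhl10 was at 29.3% ± 1.59 over 19 cytosines, with sides that differed as given further on. The last 2 pairs, named after their values were seen, were 6430550D23Rik/Ergic3 at 22.3% over 24 cytosines and Ush1g/Otop2 at 21.6% over 34. All 24 cytosines of 6430550D23Rik/Ergic3 lay 105 to 861 bp inside Ergic3. The 8 within 200 bp of the TSSs averaged 0.0422%, and those 786 to 861 bp inside lay between 65.3% and 97.7%. At Ush1g/Otop2 the 25 cytosines within 200 bp of the TSSs or between them averaged 16.2%. Just below the bound lay Bak1/Ggnbp1 at 19.7% and Nudt22/Trpt1 at 19.4%.

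Methylation of 1 side only was rare. With at least 3 common cytosines required on each side, 549 pairs could be compared. The absolute difference between sides had a median of 0.112 points and was under 1 point in 460 pairs (83.8%) and over 10 points in 27. Both sides were above 20% in 2 pairs and 1 side alone in 15. A mean difference of 50 points or more was found in 5 pairs, where the same sign in 4 of 4 mice was required for a pair to count.

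**Figure D3:**
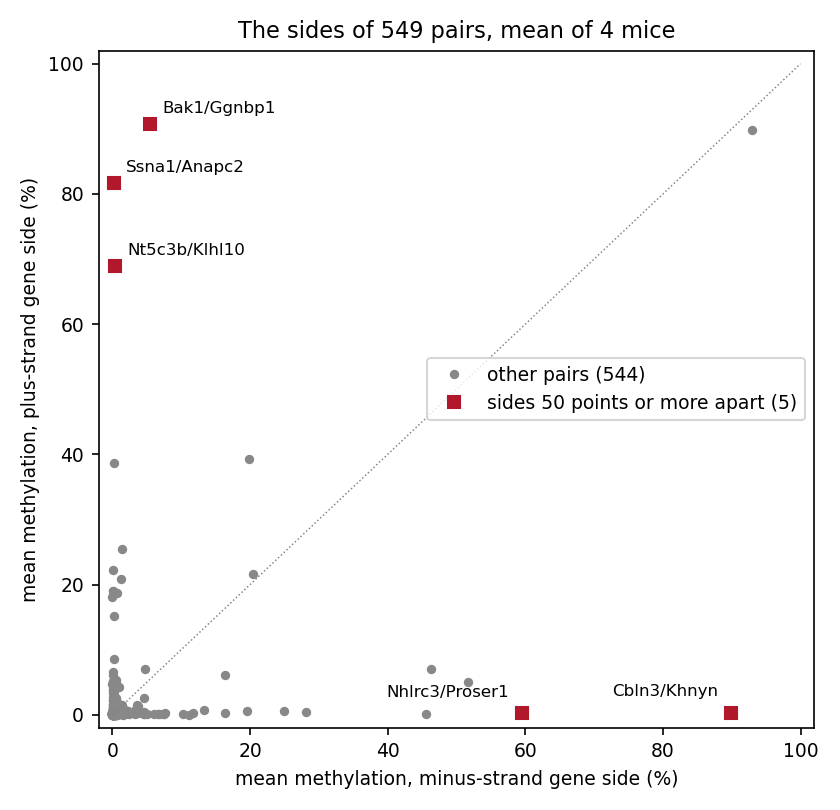
Mean methylation (%) of the minus-strand gene side against the plus-strand gene side in the 549 pairs with at least 3 common cytosines on each side, averaged over 4 mice. Red squares are the 5 pairs with sides 50 points or more apart; most other pairs lie near 0 on both axes, and the point in the upper right corner is H2bc1/H2ac1.

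At Cbln3/Khnyn, a cerebellin gene and a gene of an RNA-binding protein, the Cbln3 side was at 89.9%, 86.5%, 88.3% and 94.9% and the Khnyn side at 0.760%, 0.219%, 0.0587% and 0%. The 7 methylated cytosines lay 308 to 815 bp inside Cbln3, 5 of them in coding exons, and the 16 between the TSSs averaged 0.167%. Those 16 lay 557 to 682 bp from the Cbln3 TSS, at the Khnyn end of the interval, and no common cytosine lay nearer to Cbln3 between the TSSs.

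Bak1, which promotes apoptosis, shares its window with an internal TSS of Ggnbp1, a gene of spermatogenesis, 11224 bp from the most 5′ TSS of that gene. The Ggnbp1 side was at 92.5%, 90.9%, 90.1% and 89.5% over the 5 cytosines printed above, and the Bak1 side at 5.85%, 8.09%, 2.86% and 4.86%. The 14 cytosines between the TSSs, also printed above, lay 26 to 177 bp from the Bak1 TSS. Coverage at the 5 cytosines in Ggnbp1 was as low as 10 or 11 reads in the Mixed mice.

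Ssna1/Anapc2, a centrosomal protein gene and a subunit gene of the anaphase-promoting complex, was methylated at its outer edge. No common cytosine lay between the TSSs or nearer than 947 bp inside Anapc2. The 6 cytosines 947 to 995 bp inside Anapc2, in a coding exon, were at 84.9%, 79.9%, 82.0% and 79.9%. The 29 on the Ssna1 side were at 0.246%, 0.395%, 0.0328% and 0%.

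Nt5c3b/Klhl10, a nucleotidase gene and an adaptor of protein ubiquitination in spermatids, differed by side as well. The 8 cytosines 137 to 308 bp inside Klhl10 were at 65.6%, 71.3%, 73.2% and 65.7%, and the 11 measured on the Nt5c3b side, 922 to 985 bp from its TSS, at 0.415%, 0%, 0.565% and 0.646%. Nhlrc3/Proser1 was at 59.5% ± 6.31 over 4 cytosines 742 to 849 bp inside Nhlrc3 and at 0.212% ± 0.0849 over 41 cytosines inside Proser1.

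**Figure D4:**
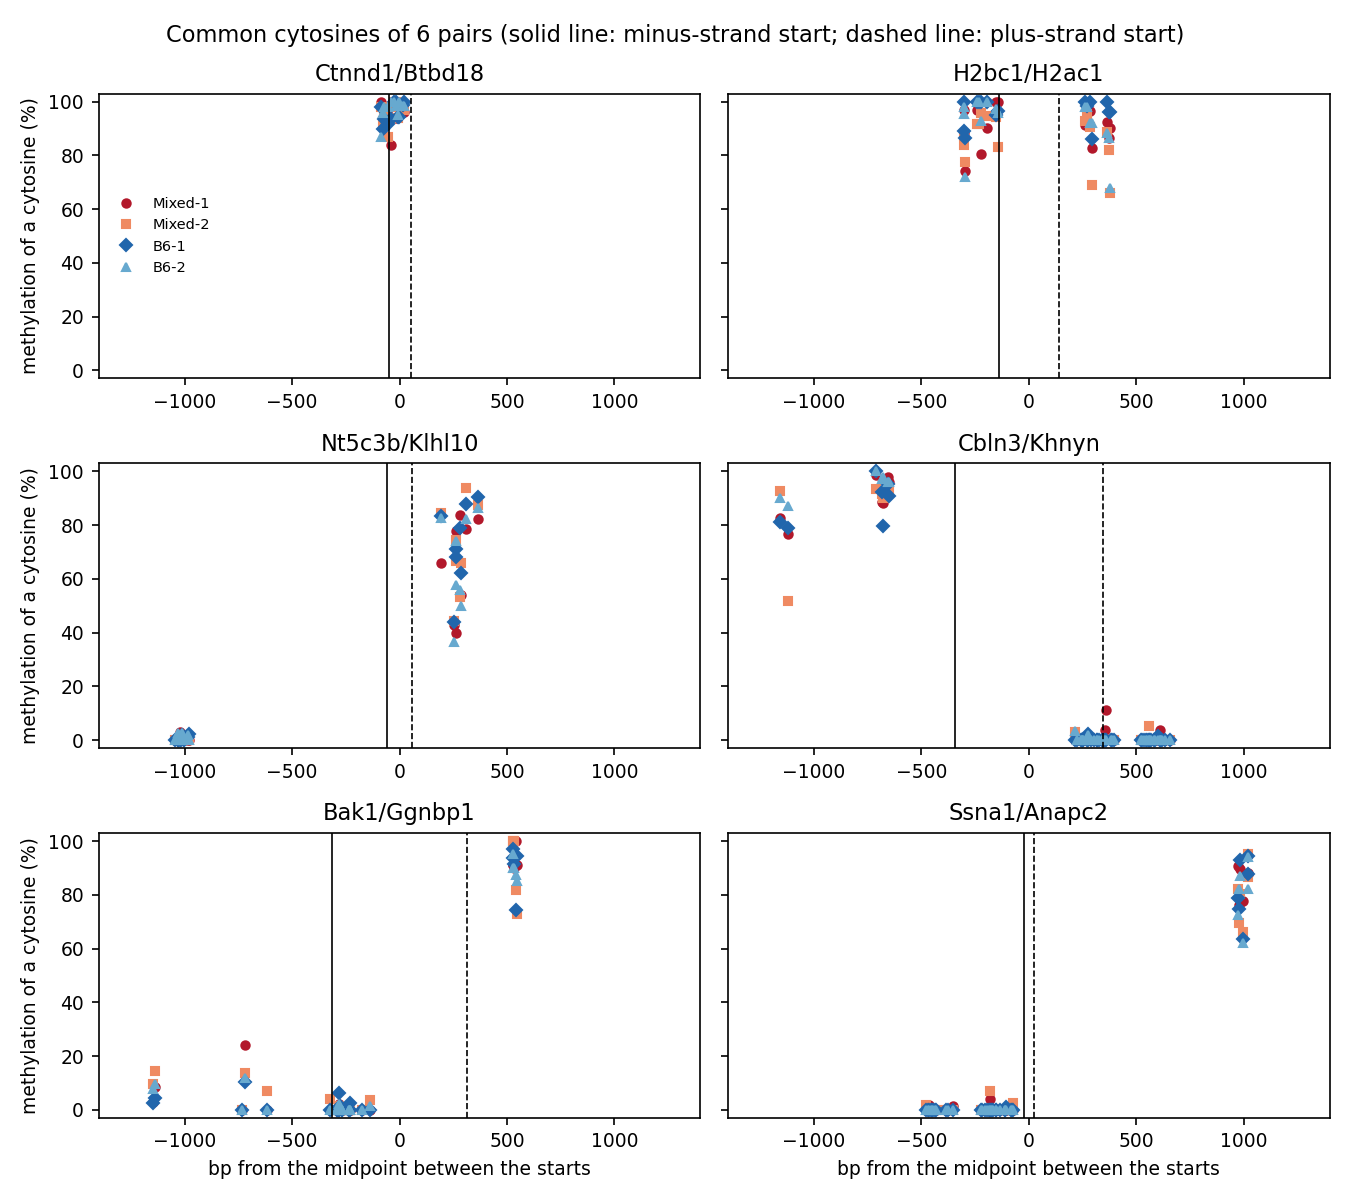
Methylation (%) of each common cytosine in 6 pairs against its distance in bp from the midpoint between the TSSs, with 1 symbol per mouse; the solid line is the minus-strand TSS and the dashed line the plus-strand TSS. Ctnnd1/Btbd18 and H2bc1/H2ac1 are high at every common cytosine, none of which lies inside Btbd18. The other 4 pairs are high on 1 side and under 25% on the other.

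Over all pairs, cytosines in coding exons were methylated more often than those in the first, noncoding parts of transcripts. The mean was 1.47% over 8283 cytosines in coding exons, 0.861% over 14087 in introns, 0.411% over 17359 in noncoding parts of exons and 0.526% over 7331 outside curated coding transcripts. Of the 92 cytosines above 80%, 41 lay in coding exons, 21 in introns, 11 in noncoding parts of exons and 19 outside transcripts. Distance from the TSS was not held equal in this comparison.

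Pairs of housekeeping genes were as low as the pairs in general, of which 98.3% were below 20%. Genes of the mitochondrial ribosome were in 25 pairs with a median of 0.159%, against 0.169% over all pairs, and the highest was Gga3/Mrps7 at 1.82%. Complex I of the respiratory chain and its assembly factors gave 12 pairs (median 0.136%), of which Ndufa13/Tssk6 was at 6.10% and the other 11 below 1%. The 10 pairs with an aminoacyl-tRNA synthetase had a median of 0.149% and were all below 1%, with Orc3/Rars2 the lowest at 0.0254%. The 9 pairs with a protein of the cytosolic ribosome ran from 0.0988% (Rpl9/Lias) to 0.990% (Iqcg/Rpl35a). None of these 4 groups had a pair at 20% or more. The share over all pairs was 1.67%, at which groups of 9 to 25 pairs would often hold none.

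DNA repair and replication genes were in 38 pairs with a median of 0.126%. The lowest was Pole3/4933430I17Rik at 0%, and the highest Rad51c/Tex14, the only one at 20% or more. Of 4 measured histone pairs, H2bc1/H2ac1 was at 91.5% and H2ac6/H2bc4, made of replication-dependent histone genes, at 0.198%. The listed germline genes were in 3 pairs: Rad51c/Tex14 at 92.0%, Smc1b/Ribc2 at 23.1% and Gpc2/Stag3, with another meiotic cohesin subunit, at 0.893%. Among single promoters, 18 of 24 listed germline genes were at 20% or more, where 543 of all 7594 (7.15%) were.

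Pairs long used as examples of divergent promoters were low. Atm/Npat, a DNA damage kinase and a regulator of histone transcription, was at 0.0363% over 45 cytosines and Brca1/Nbr1 at 0.0819% over 10, all on the Brca1 side. Hspd1/Hspe1, the chaperonin of mitochondria, was at 0.131% over 105. Mcm4/Prkdc, Psmb9/Tap1, Ranbp1/Trmt2a and Pdcd10/Serpini1 lay between 0.192% and 0.907%. At Psmb9/Tap1 the 14 cytosines all lay 351 to 619 bp inside Tap1. Col4a4/Col4a3, collagen IV chains of basement membranes, was the highest at 3.52% ± 1.22 over 10 cytosines, all on the Col4a4 side. Col4a1/Col4a2, Ppat/Paics and Surf1/Surf2 were no members because their annotated TSSs overlapped, and their windows lay between 0.0881% and 0.384%.

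Promoter motifs were counted in the 300 bases from 250 before to 50 after each TSS, on both strands, as exact letters. Of 1678 pair promoters, 31.5% held CCGGAAG, a site of ETS factors that contains the MspI sequence, against 15.3% of the 7594 single promoters and 11.6% of 24831 curated promoters. TATAAA was in 3.40% of pair promoters, 7.16% of single promoters and 12.2% of all. GCGCATGCG, the NRF1 site, was in 5.48%, 3.25% and 2.24%, and AAGATGGCG, of the YY1 type, in 5.07%, 2.37% and 1.85%. CCAAT was in 41.8%, 36.4% and 37.4%, GGGCGG in 69.7%, 68.3% and 47.9%, CACGTG in 11.3%, 10.1% and 8.01%, and TGACGTCA in 4.53%, 3.44% and 2.37%. In the 28 promoters of the pairs at 20% or more, CCGGAAG was found in 7, GGGCGG in 12 (42.9%), CCAAT in 14, TATAAA in 3 (10.7%), CACGTG and TGACGTCA in 2 each, and GCGCATGCG and AAGATGGCG in 0. Promoters of 1 pair overlap where its TSSs are close, so they are not independent.

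The strains did not separate over the pairs. Mean window methylation was 1.62% ± 0.0189 in the Mixed mice and 1.62% ± 0.00439 in the B6 mice, a difference of 0.00763 points (exact permutation test, two-sided, p = 1, where 0.33 is the smallest possible). It turned to -0.00576 points without Mixed-1 and to -0.0209 points between medians.

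A logistic model of the methylated and unmethylated reads of each cytosine, with moderated overdispersion, called none of the 47060 cytosines in pairs. Calls required an adjusted p under 0.01 and a difference of 25 points, and 0.00658% of all common cytosines were called. Of the cytosines in pairs, 46670 (99.2%) had a mean below 20%, which left most of them little or no room for such a difference. The absence of calls there therefore says little about strain. At an unadjusted p under 0.05, 121 cytosines in pairs passed (0.257%), 6 of them with a difference of 25 points, where 1.99% of all common cytosines passed. Fisher's exact test on pooled reads, which ignores the spread between mice, called 5, where it called 0.126% of all, and limma on log2 ratios called 0. By pair, the same model on summed reads called 0 of 839 pairs at a difference of 10 points, where 0.0237% of all windows were called. In the 798 pairs with a mean below 5%, a difference of that size was not possible. Fisher's exact test called 1 pair, where it called 17 of the 8433 windows (0.202%), and limma called 0. At an unadjusted p under 0.05, 56 pairs (6.67%) passed, near the 7.59% of all windows. Without a B6 mouse the model called no cytosine in the whole series, and without a Mixed mouse 318 or 326, with none in pairs each time.

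The cytosine of Sgce/Peg10 at chr6:4747461 came nearest (59.9 points higher in the Mixed mice, adjusted p = 0.0862 from the logistic model with limma moderation). Its Wilson 95% intervals were 71.7% to 98.9% in Mixed-1 and 83.2% to 100% in Mixed-2, and 24.3% to 43.8% and 31.3% to 50.6% in B6-1 and B6-2. Without this cytosine, the Sgce/Peg10 window was at 47.6%, 54.3%, 28.1% and 45.4%, and the difference between strains fell from 18 to 14.2 points. Smc1b/Ribc2 had an adjusted p of 0.0198 on summed reads in that model, but its window means differed by only -1.10 points.

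Single mice stood apart at few places. At 9 cytosines in 6 pairs, 1 mouse lay 30 points or more from each of the others while those were within 10 points of each other. Of these, 6 were high in Mixed-2, and 4 of the 6 lay at chr11:93886240-93886278 in Utp18/Mbtd1, an RNA processing gene and a chromatin reader gene, chosen after its values were seen. At chr11:93886260 Mixed-2 was at 51.9% (27 of 52 reads, Wilson 95% interval 38.7% to 64.9%) and Mixed-1 at 3.45%, while B6-1 and B6-2 had 0 of 18 and 0 of 26 reads, which allows up to 16.7% and 11.5%. The pair as a whole was at 0.569% over 127 cytosines. Intervals and limits cover counting error only, since amplified reads are not independent molecules.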

How the data were processed

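Whole-liver DNA of 4 mice was profiled by ERRBS. The authors deposited, for each mouse, the coverage count and the percent of C and T reads of each CpG cytosine with at least 10 reads. The study's methods name BSMAP as the aligner, while the submitters' processing notes name Bismark and SAMtools with mm10, without versions. Methylated counts were recovered here as the percent times the coverage, rounded.

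Pairs and single promoters came from RefSeq curated coding transcripts on GRCm38. Members and gene lists were chosen with earlier results of these data known. A window level is the unweighted mean over its common cytosines, so cytosines of 1 read fragment are not independent. An island was called where a stretch just over 200 bp had GC of at least 50% and observed to expected CpGs over 0.6. Soft-masked bases of the genome counted as neither C nor G in that call. Levels were compared over mice by exact sign tests and exact permutation tests. Strain differences were fitted by logistic models of the counts over all common cytosines or all windows, with overdispersion moderated by limma 3.58.1 in R 4.3.3 and p-values adjusted by Benjamini-Hochberg. The overdispersion prior used features with 10 methylated and 10 unmethylated reads, a choice made after the first fit. Exact tests used scipy 1.17.1 under Python 3.11.15. The scripts were tested on simulated data.

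The pairs named were the 10 with the highest level, those with 1 methylated side, at most 10 that were strain-variable, a list of known divergent pairs, the 2 closest pairs, the pair with most cytosines, and the highest and lowest of each gene list. Other named pairs (such as Smc1b/Ribc2, Gpc2/Stag3, Haghl/Ccdc78, Zbtb25/Zbtb1 and Nudt22/Trpt1) were chosen after their values were seen. A few items that these rules select are not reported here. Nothing in the labels says more than that each mouse is a separate sample. The p-values of the permutation tests and the models rest on the spread between these mice. Sign tests use only the sign of the difference in each mouse. Fisher's exact test on pooled reads ignores the spread between mice. Alternatives changed the coverage minimum, window, strand merging, weighting, bounds, limits on distance and the mice used.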

Additional observations from a re-analysis of the deposited data

Results flagged for a closer look

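The X chromosome lay outside the comparisons, which used autosomes only. Of 20 head-to-head pairs there with at least 5 common cytosines, Gm4779/8030474K03Rik had a window mean of 94.8% over 14 cytosines, with TSSs 211 bp apart. It was at 95.3% and 94.6% in the Mixed mice and 94.3% and 94.9% in the B6 mice. It drew attention as a methylated pair in data that the comparisons did not use. The next highest was Trpc5/Rtl4 at 8.64%, and the other 18 were at 3.54% or less.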

How the results depend on the processing

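The mean level of the pairs, 1.62%, was 1.59% with at least 20 reads, 1.70% with strands merged, 1.53% with reads pooled, 1.58% with overlapping TSSs added, 1.23% with 10 or more cytosines, 0.975% within 200 bp of the TSSs, and, in alternatives chosen after seeing the data, 0.165% as a median and 1.54% for the most 5′ TSSs only. It lay between 1.61% and 1.62% without 1 mouse each. The 5 hypermethylated pairs became 2 with 10 or more cytosines, since the other 3 held fewer, and the 5 pairs with 1 methylated side became 9 with a limit of 30 points. With bounds of 10% and 90%, 4 pairs were hypermethylated and 22 intermediate. Within 200 bp of the TSSs, 4 of 776 pairs were hypermethylated and 4 intermediate. Ubxn10/Pla2g2c (8.18%), Smc1b/Ribc2 (14.5%), Ush1g/Otop2 (16.2%) and 6430550D23Rik/Ergic3 (0.0422%) were below 20% there. The difference between strains, 0.00763 points, was reversed to -0.0209 as a median and lay between -0.00576 and 0.0210 without 1 mouse each. The replicate block, which pairs mice by number, gave the same 0.00763 points and changed no call in pairs. The labels do not say that a number marks anything shared, and same-numbered mice did not deviate together (correlation -0.0358 over cytosines in pairs). Fisher's exact test on pooled reads called 5 cytosines and 1 pair where the model called 0. Over all common cytosines the model called 84, against 150 at an adjusted p under 0.05, 0 with the replicate block, 0 with limma on log2 ratios, 1613 by Fisher's test, and 318 or 326 without a Mixed mouse and 0 without a B6 mouse. The causes of these changes were not tested. The direction of the remaining differences was the same in every alternative run. With 4 mice no exact sign test could pass 0.05, and libraries of the Mixed mice were the shallower ones.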
